A study of Mus musculus with 6 samples.

Results

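The cytosolic ribosomal proteins are the protein components of the ribosome outside mitochondria. Here they were taken as all rows of a mouse count table named Rpl or Rps with a number (and an a, x or l at most), the stalk proteins Rplp0 to Rplp2, and Rpsa, if their counts over the 6 libraries summed to at least 600. Of 33017 genes in the table, 78 carry such a name and 68 met the minimum, 40 of the large and 28 of the small subunit. Both members nearest the minimum on the inside, Rpl13a and Rpl6l, had 3600 and 3863 counts in all, while Rpl39l, on the outside, had 24. All 68 members also passed the filter on low counts. Of the 10 rows left out, 6 are listed at 0 in every library (Rpl35, Rpl35a, Rps10, Rps4l, Rpl32l and Rpl10l), Rpl24 has 1 count and Rpl3l has 9. Because Rpl24, Rpl35, Rpl35a and Rps10 belong to every ribosome, these zeros were not read as absent transcripts.

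Poly-A RNA of mouse small intestine was sequenced in 3 model libraries and 3 control libraries. The series title names simulated microgravity and radiation, taken here as the 2 factors of the model. It also names a compound called CB001, which none of the library labels mentions. The labels give no strain, sex, age, dose or duration for either group, and they leave unstated whether each library is a separate animal. The p-values therefore measure how far these libraries differ from each other, a spread that may be technical.

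A ribosome joins a small subunit, which reads the messenger RNA, to a large subunit, which forms the peptide bond. Cells make the protein components in matched amounts, and many of their messenger RNAs begin with a pyrimidine-rich tract, called TOP, through which the kinase mTORC1 adjusts their translation. In the intestine, where the epithelium renews itself throughout life, ribosome production is high in the dividing cells of the crypts. Some members also act outside the ribosome: free Rpl5 binds Mdm2 and so stabilises p53, Rps6 is the classical substrate of S6 kinase, and Rps27l is a transcriptional target of p53.

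The sequence around the transcription start is shown for 8 members whose values are described below, since the start carries the TOP tract. Each stretch holds 60 bases, 5′ to 3′, with the annotated start at base 41, from RefSeq on GRCm38.p6. Capitals mark each unbroken run of at least 8 pyrimidines (C or T, coding strand only) within 30 bases on either side of the start. Rplp0 and Rps3 are shown for contrast because their longest runs, of 7 and 6 bases, fell short of this. The annotated start may differ from the one used in the tissue. A run, or the lack of one, therefore does not tell whether a messenger RNA begins with a TOP tract.
Rpl4 (chr9:64173347-64173406, + strand): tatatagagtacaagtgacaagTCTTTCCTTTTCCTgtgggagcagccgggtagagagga
Rpl5 (chr5:107900488-107900547, + strand): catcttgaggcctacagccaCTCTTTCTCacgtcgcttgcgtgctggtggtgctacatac
Rplp2 (chr7:141447611-141447670, + strand): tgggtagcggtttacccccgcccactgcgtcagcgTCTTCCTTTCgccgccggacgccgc
Rps6 (chr4:86857348-86857407, - strand): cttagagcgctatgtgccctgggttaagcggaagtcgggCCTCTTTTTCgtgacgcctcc
Rps27 (chr3:90213629-90213688, - strand): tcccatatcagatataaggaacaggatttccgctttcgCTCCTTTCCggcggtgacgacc
Rps27l (chr9:66946046-66946105, + strand): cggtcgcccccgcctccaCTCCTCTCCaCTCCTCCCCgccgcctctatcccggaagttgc
Rplp0 (chr5:115559427-115559486, + strand): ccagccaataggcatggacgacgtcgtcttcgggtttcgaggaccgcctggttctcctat
Rps3 (chr7:99483690-99483749, - strand): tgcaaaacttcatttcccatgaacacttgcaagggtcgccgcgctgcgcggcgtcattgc
The run lay across the annotated start in Rplp2, Rps6 and Rps27, and lay upstream of it in Rpl4 and Rpl5. Rps27l holds a pair of runs, both upstream of the start shown, chosen among its 2 annotated starts as the one with the longest run. RefSeq windows were matched for 50 of the 68 members, with 58 annotated starts between them. A run of this kind was present at 29 of these 58 starts (50%), against 22.94% of all 32851 starts in the table. The motif CCGGAAG, the core bound by ETS family factors, was found on either strand in 34.48% of the members' windows of 300 bases and in 8.858% of all windows. The YY1 core AAGATGGC was found in 6.897% against 2.749%, and the GC box GGGCGG in 56.9% against 35.66%. The reverse complements of the ETS and YY1 cores hold short stretches of C and T, so a pyrimidine run and these motifs can share bases, and a match describes the letters only.

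The libraries held between 35007515 and 45285564 counts, so that sampling error was small against the differences between libraries. Values are CPM, counts scaled to a common library size after TMM scaling, and log2 fold changes are of model against control. Model 1 stood apart from the other 5 libraries with transcript length. Its genes of 500 to under 1000 bases, leaving out the members, had a median log2 CPM 0.51 above their mean over the 6 libraries, and those of 5000 bases or more were 0.51 below it. Control 3 leaned the other way, with -0.22 and 0.28 for the same classes. In the class under 500 bases, which holds 11 members, the medians of the other genes were 0.21 in model 1, 0.20 in control 1 and -0.18 in control 3. Ribosomal protein messenger RNAs are short: 51 of the 68 are annotated at under 1000 bases, with a median of 776 bases against 2611 bases over all genes tested. Results are therefore given with model 1 and without it.

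As a pool, the ribosomal proteins took the largest part of the counts in model 1 and nearly equal parts in the 5 other libraries. They held 3.00%, 1.91% and 1.85% of all counts in model 1, 2 and 3, against 1.92%, 2.14% and 1.91% in control 1, 2 and 3. The means were 2.25% ± 0.646 in model and 1.99% ± 0.131 in control tissue (SD, n = 3 each), a difference smaller than the spread of the model libraries. Model 2 and 3 alone averaged 1.88%, a difference of -0.107 percentage points from the control mean. In tissue samples such as these, fewer cells of a type and less RNA per cell cannot be told apart.

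**Figure D1:**
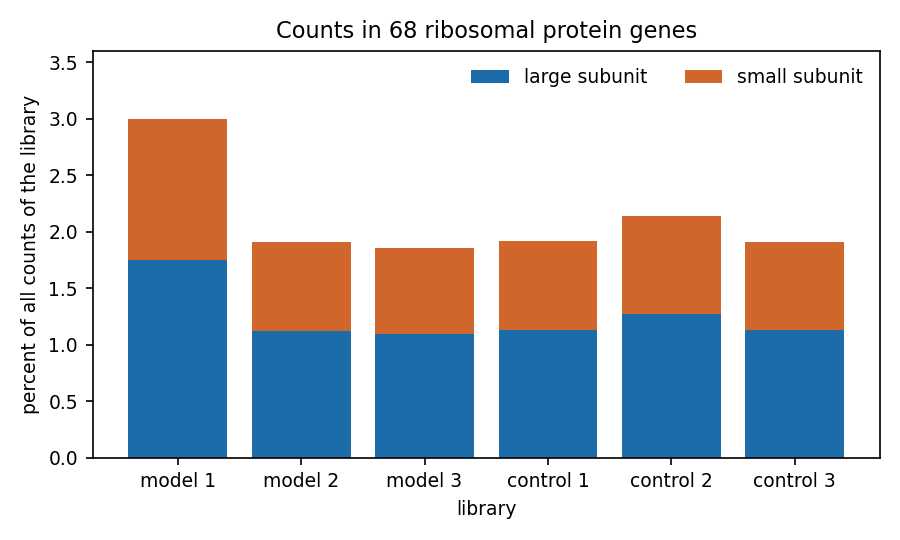
Percent of each library's counts that fell in the 68 ribosomal protein genes, stacked by subunit, for model 1 to 3 and control 1 to 3. Model 1 reaches 3.00%, while the 5 other libraries lie between 1.85% and 2.14%.

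The makeup of the pool by subunit was nearly the same in all libraries. Large subunit genes made up 58.3%, 58.9% and 58.8% of the pool in model 1, 2 and 3, and 59.0%, 59.2% and 59.2% in control 1, 2 and 3. All 3 model values lay below all 3 control values, with a mean difference of -0.478 percentage points.

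Gene by gene the members behaved as a block. Model 1 had the highest value of the 6 libraries for 68 of 68 members, where it was highest for 28.5% of all genes tested. Its value was between 1.49 times (Rps2) and 2.69 times (Rpl37a) the mean of the other 5 libraries, with a median of 1.98 times. Among those 5, control 2 was highest for 60 members and control 3 was the lowest of all 6 libraries for 52. Model 2 lay within the range of the controls for 62 members, and model 3 for 61.

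**Figure D2:**
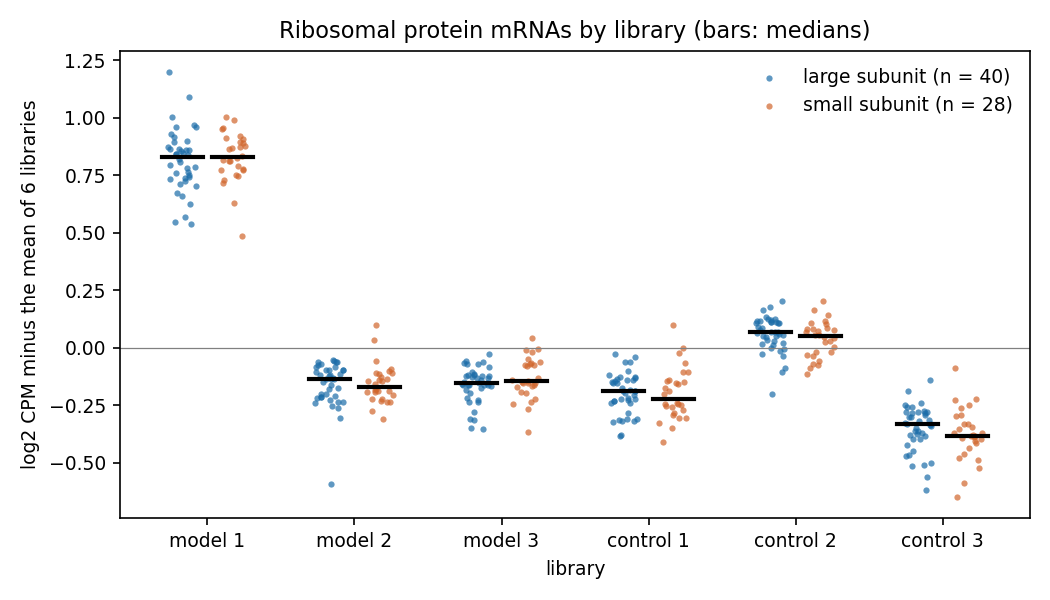
Log2 CPM of each ribosomal protein gene minus its mean over the 6 libraries, by library, with large and small subunit genes side by side; bars are medians. The medians over all 68 members are 0.83, -0.15 and -0.15 in model 1, 2 and 3 and -0.19, 0.06 and -0.36 in control 1, 2 and 3, and both subunits keep together in each library.

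In the comparison of 3 model with 3 control libraries, no ribosomal protein passed the test. The edgeR quasi-likelihood test called 0 of the 68 at a Benjamini-Hochberg adjusted p under 0.05, as it called 0% of all 15904 genes tested. DESeq2 and limma-voom also called 0 members. At an unadjusted p under 0.05 edgeR gave 1 member, Rps27a, where 4.81% of all genes reached that level and 1.82% did so with higher values in model. The fitted log2 fold change was above 0 for 68 of 68 members, against 48.2% of all genes. It ran from 0.25 for Rpl3 to 0.70 for Rps27a with a median of 0.41, against -0.02 over all genes, and standard errors (SE) were 0.26 to 0.44. Large subunit genes had a median of 0.40 and small subunit genes one of 0.43. The 3 model values lay above the 3 control values for 2 members, Rps27a and Rpl32 (4.73% of all genes), and below them for 0 members (6.33% of all genes).

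Without model 1 the common direction was gone. Of the 68 members 33 had a log2 fold change above 0, against 47.5% of all genes, and the median was -0.0014. The values ran from -0.18 for Rpl37a to 0.35 for Rps27a with SEs of 0.17 to 0.29. The edgeR quasi-likelihood test gave every member an adjusted p of 0.9997 in this fit, and 0 members reached an unadjusted p under 0.05, against 3.95% of all genes. Model 2 and 3 both exceeded the 3 controls for Rps3, Rpl32 and Rps27a (8.6% of all genes), and both lay below them for 0 members (10.6% of all genes). Leaving out control 3 as well as model 1 left 11 members above 0 and a median of -0.08.

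**Figure D3:**
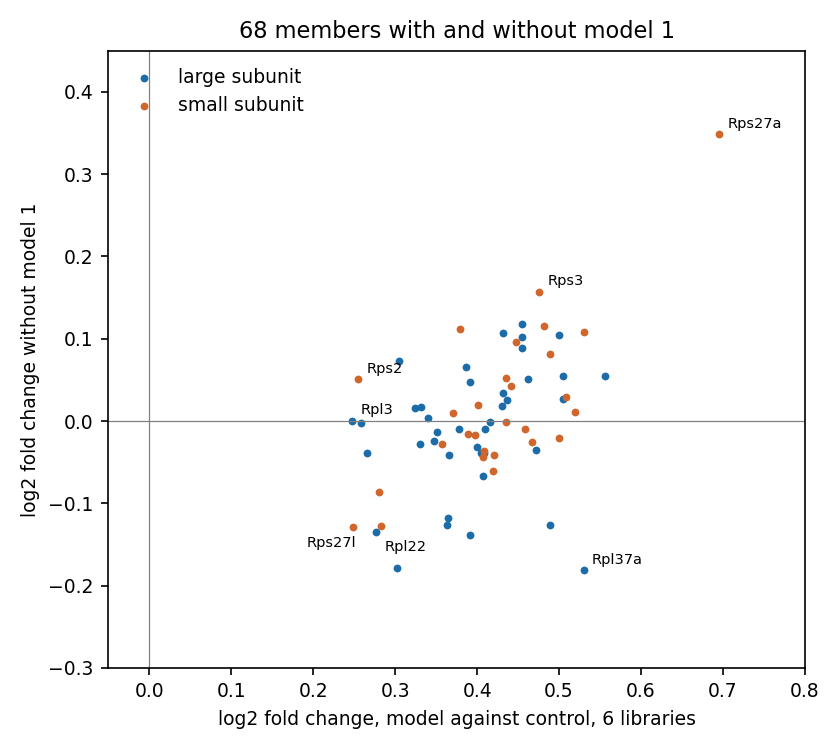
Log2 fold change of each ribosomal protein gene, model against control, from all 6 libraries (horizontal) and without model 1 (vertical), coloured by subunit. All 68 points lie right of 0, between 0.25 and 0.70, but they spread around 0 vertically, with Rps27a at 0.35 and Rpl37a at -0.18.

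Part of the height of model 1 went with the length of the transcripts, and whether length was its cause was not tested. The trend of the other genes with length, read at the lengths of the members, gave a median of 0.46 in model 1, of the 0.83 measured for the members. After each library's own trend over all genes was taken out, a median of 0.37 remained in model 1, against -0.11 and -0.04 in model 2 and 3 and -0.17, -0.02 and -0.18 in control 1, 2 and 3. With the trends removed in the fit, 68 of 68 members still had a log2 fold change above 0 (52.2% of all genes), with a median of 0.22 and a range from 0.03 for Rps27l to 0.77 for Rps15a. Again 0 members were called, and 1 had an unadjusted p under 0.05, a level that 5.27% of all genes reached. The largest of these values rest on annotated lengths that are unusual in this family, 5130 bases for Rps15a and 3706 bases for Rps20. Under 500 bases the trend described the other genes poorly. In model 1 it stood at 0.51 at 345 bases and 0.50 at 488 bases, against a median of 0.21 for that class. For the 11 members of the class more may therefore have been taken out than the other genes show. Within the family itself, length and fold change hardly went together: Spearman's rho over the 68 members, which share the same 6 libraries, was -0.10 with the log2 fold change and -0.26 with the ratio of model 1 to the other libraries.

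**Figure D4:**
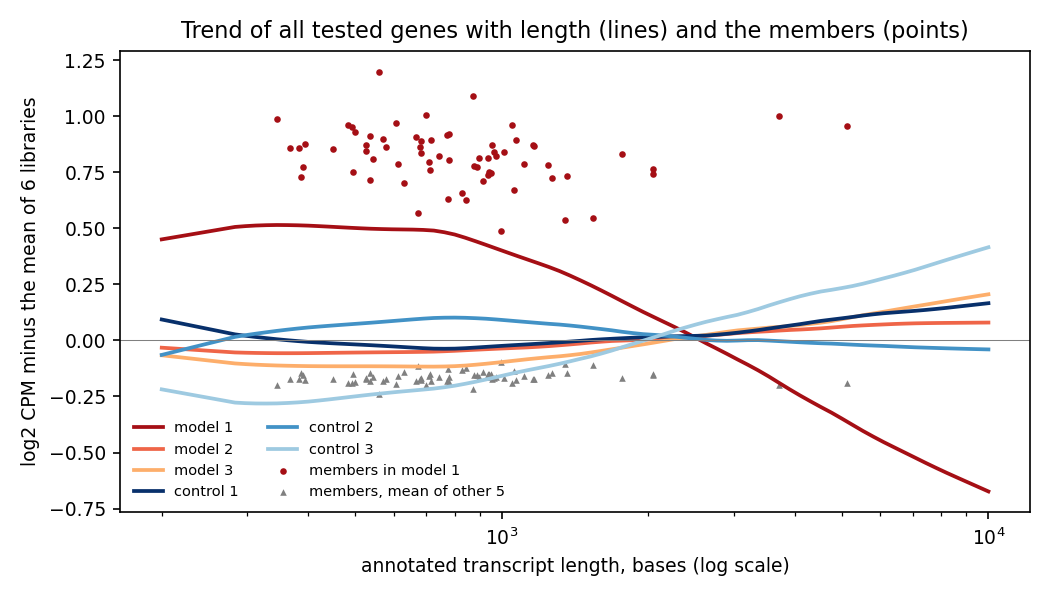
Deviation of log2 CPM from the mean of the 6 libraries against annotated transcript length (log scale): lines are the lowess trends of all tested genes in each library, red points the members in model 1, and grey triangles the members averaged over the other 5 libraries. The line of model 1 descends with length, and the members in model 1 lie above it, with a median of 0.83.

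The stalk of the large subunit, built from Rplp0, Rplp1 and Rplp2, recruits the GTPases that drive translation. Rplp0 had the highest mean level of all members, with 1591, 896 and 917 CPM in model 1, 2 and 3, against 831, 934 and 758 CPM in control 1, 2 and 3 (log2 fold change 0.43, SE 0.31). Rplp1 measured 828, 401 and 389 CPM in model and 351, 470 and 319 CPM in control libraries (log2 fold change 0.51, SE 0.36). For both genes, model 2 and 3 fell inside the span of the controls, and the log2 fold changes without model 1 were 0.11 and 0.05. Rplp2 measured 366, 184 and 174 CPM in model and 182, 221 and 146 CPM in control libraries, and its log2 fold change of 0.40 turned to -0.03 without model 1. Per kilobase of annotated transcript, Rplp1 was the most abundant member, at 1081 CPM per kb in model and 761 CPM per kb in control tissue. The median over members on this scale was 408 CPM per kb in model and 309 CPM per kb in control tissue, and Rpl6l, a row that GENCODE annotates as a processed pseudogene, was lowest at 23.3 and 16.6 CPM per kb.

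Rpl3 and Rpl4 belong to the body of the large subunit, Rpl3 beside the centre that joins amino acids and Rpl4 along the tunnel through which the new chain leaves. Both are long for the family and had small differences. Rpl4 measured 1162, 768 and 761 CPM in model libraries and 685, 835 and 658 CPM in control libraries (log2 fold change 0.30, SE 0.28, and 0.07 without model 1). Rpl3 had 803, 505 and 527 CPM in model libraries and 517, 566 and 463 CPM in control libraries, the smallest log2 fold change of the family (0.25, SE 0.27), which was 0.0004 without model 1. Rpl5, which carries the 5S RNA into the large subunit together with Rpl11, was at 790, 405 and 445 CPM in model libraries and at 404, 494 and 388 CPM in control libraries. Its log2 fold change of 0.35 turned to -0.01 without model 1. Rpl11 could not be read, since no row of the count table carries that name.

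Other members of the large subunit ranged widely in the ratio of model 1 to the other libraries. Rpl37a, a zinc-binding protein with the highest ratio of all members, was at 365, 106 and 146 CPM in model 1, 2 and 3, against 144, 139 and 145 CPM in control 1, 2 and 3. The model libraries thus held both its highest and its lowest value, and its log2 fold change of 0.53 (SE 0.44) turned to -0.18 (SE 0.19) without model 1. Rpl27 showed little, with 309, 200 and 188 CPM in model and 200, 225 and 158 CPM in control libraries (log2 fold change 0.26, SE 0.27). Rpl41, among the shortest proteins known in mammals, was at 724, 372 and 351 CPM in model libraries and 363, 437 and 285 CPM in control libraries, and its log2 fold change of 0.42 was -0.0014 without model 1. Rpl22, whose loss in mice impairs the development of T cells, measured 279, 142 and 140 CPM in model and 143, 184 and 136 CPM in control libraries (log2 fold change 0.28, SE 0.32, and -0.13 without model 1).

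In the small subunit, Rpsa and Rps4x were the most abundant members. Rpsa, also known as a laminin receptor, measured 1446, 753 and 729 CPM in model and 684, 845 and 628 CPM in control libraries (log2 fold change 0.44, SE 0.34). Rps4x, which is encoded on the X chromosome, measured 1041, 519 and 526 CPM in model and 492, 590 and 502 CPM in control libraries (log2 fold change 0.40, SE 0.33). Without model 1 these values were 0.04 and -0.02, so that the controls enclosed what was left. Rps2 and Rps3 line the channel through which messenger RNA enters. Rps2 had the smallest ratio of model 1 to the other libraries, with 740, 566 and 452 CPM in model and 520, 557 and 397 CPM in control libraries (log2 fold change 0.25, SE 0.28). Rps3 measured 929, 519 and 550 CPM in model and 495, 521 and 420 CPM in control libraries, with a log2 fold change of 0.48 (SE 0.30) and of 0.16 (SE 0.20) without model 1. Control 2 stood slightly above model 2 for Rps3 here, whereas with the other 5 libraries scaled anew both model libraries exceeded the controls.

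Rps6 and Rps14 are the small subunit proteins best known for links to signalling and disease. Rps6 was at 637, 340 and 358 CPM in model and at 305, 390 and 285 CPM in control libraries (log2 fold change 0.45, SE 0.31). Rps14, whose loss of 1 copy underlies the anaemia of the human 5q- syndrome, measured 764, 371 and 388 CPM in model and 367, 403 and 284 CPM in control libraries (log2 fold change 0.53, SE 0.34). Both kept small positive values without model 1, 0.10 and 0.11. Rps27 and Rps27l are paralogs. Rps27 had 302, 123 and 145 CPM in model and 128, 145 and 124 CPM in control libraries (log2 fold change 0.52, SE 0.35). The p53 target Rps27l had 135, 79.2 and 63.8 CPM in model and 76.5, 94.8 and 63.0 CPM in control libraries (log2 fold change 0.25, SE 0.31, and -0.13 without model 1). After removal of the length trends Rps27l had the smallest value of the family, and edgeR's quasi-likelihood test gave it an adjusted p of 0.862 in the comparison of all libraries. The difference between both paralogs was not tested.

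Rps27a had the largest difference of the family, although it did not pass the test either. Its gene encodes a fusion of ubiquitin with a small subunit protein, so each translated copy yields both. It measured 306, 169 and 170 CPM in model 1, 2 and 3, against 136, 152 and 109 CPM in control 1, 2 and 3, and every model library lay above every control library. The means were 215 ± 79.2 CPM in model and 133 ± 21.6 CPM in control tissue (SD, n = 3 each). Its log2 fold change was 0.70 (SE 0.30), with an unadjusted p of 0.0488 and an adjusted p of 0.851 by edgeR's quasi-likelihood test. It remained the largest of the family without model 1, at 0.35 (SE 0.20), and was 0.49 (SE 0.17) after removal of the length trends. Reads of its ubiquitin part could be shared with the other ubiquitin genes, which makes the value uncertain. The polyubiquitin gene Ubb was at 1175, 740 and 693 CPM in model and at 751, 735 and 442 CPM in control libraries (log2 fold change 0.44, SE 0.34, and 0.16 without model 1).

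Each member was also set against the family itself, as a percent of the summed counts of the 68, a scale on which a shift common to all members cancels. This scale was chosen after the values were seen. Rps27a made up 0.843%, 0.892% and 0.887% of the pool in model 1, 2 and 3, against 0.753%, 0.708% and 0.668% in control 1, 2 and 3. The means of 0.874% ± 0.0270 in model and 0.709% ± 0.0425 in control tissue (SD, n = 3 each) differed by more than the spread of either group, and here model 1 did not lead. With the libraries scaled to the pool, edgeR's quasi-likelihood test gave Rps27a a log2 fold change of 0.30 (SE 0.25) with an adjusted p of 0.905, and the value stayed between 0.26 and 0.35 when single libraries were left out.

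Other members whose groups did not overlap on this scale differed by less. Higher in each model library was Rpl12, from the base of the stalk, at 1.50%, 1.60% and 1.53% in model and 1.49%, 1.47% and 1.50% in control libraries. Lower in each model library were Rpl22, at 0.769%, 0.751% and 0.730% in model and 0.793%, 0.855% and 0.827% in control libraries, and Rpl15, at 0.770%, 0.882% and 0.846% in model and 0.917%, 0.906% and 0.885% in control libraries. Rpl39, a small protein of the exit tunnel, was at 0.580%, 0.578% and 0.575% in model and 0.592%, 0.588% and 0.593% in control libraries. In all, 2 members lay above and 3 below without overlap, where 1.04% and 8.75% of all genes did so on this scale. The shares over all genes are not a like background here. The members make up the pool themselves, whereas other genes are lowered in model 1, where the pool was largest. By edgeR's quasi-likelihood test 0 of the 68 were called (0% of all genes) and 0 had an unadjusted p under 0.05, against 3.93% of all genes. The SEs on this scale were 0.25 to 0.32 for all members, however little their shares varied. Rpl39 had an SE of 0.25, although its shares had SDs of only 0.0025 in model and 0.0028 in control libraries. The test could therefore not decide on differences as small as these, that of Rps27a included.

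Other parts of the translation machinery were read from the same fit, in lists chosen with earlier results of these data known, and edgeR called 0 of their genes. Of 5 tested ribosomal proteins outside the name rule, 5 had a log2 fold change above 0 (48.2% of all genes), with a median of 0.42 and of 0.03 without model 1. Among them Fau, a fusion of a ubiquitin-like protein with Rps30, was at 832, 359 and 397 CPM in model and 356, 432 and 241 CPM in control libraries (log2 fold change 0.63, SE 0.40, and 0.14 without model 1). The scaffold protein Rack1 was at 1111, 595 and 658 CPM in model and 567, 662 and 529 CPM in control libraries, and Rps3a1 at 1072, 511 and 521 CPM in model and 499, 692 and 474 CPM in control libraries. Rpl22l1, the paralog of Rpl22, was at 46.7, 21.4 and 19.3 CPM in model and 20.2, 27.2 and 18.0 CPM in control libraries. All 5, with Rpl7l1 as the fifth, had their highest value in model 1.

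Translation factors and other TOP messenger RNAs were read next. Of 10 elongation factors 8 lay above 0 with a median of 0.17, led by Eef1a1, which delivers aminoacyl tRNA, at 5880, 3646 and 4148 CPM in model and 3625, 4032 and 3426 CPM in control libraries. Eef2, which moves the ribosome along, was at 3201, 2578 and 3007 CPM in model and 2532, 2546 and 2082 CPM in control libraries. Of 33 initiation factors 30 lay above 0 (median 0.18), with the most abundant, Eif4g2 and Eif4g1, at 0.01 and 0.04. Of 19 other TOP messenger RNAs 16 lay above 0 (median 0.30). Without model 1 these medians were 0.03, 0.04 and 0.03.

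Genes whose products build or regulate ribosomes were read in 3 lists. Ribosome assembly factors, which are longer, had a median deviation of -0.05 in model 1, against 0.83 for the ribosomal proteins, and 52 of 75 had a log2 fold change above 0 with a median of 0.07. Nucleolin (Ncl), the most abundant of them, was at 292, 305 and 275 CPM in model and 279, 320 and 273 CPM in control libraries. RNA polymerase I and its factors had 9 of 15 above 0 (median 0.17). Of the 25 genes listed for mTORC1 and the control of TOP translation, 16 lay above 0 (median 0.09). This list also holds Myc, Mycn, Max, Mxd1 and Mdm2. Without model 1 the medians of the assembly, RNA polymerase I and mTORC1 lists were 0.09, 0.05 and 0.11. At an unadjusted p under 0.05 stood 2 of the 25 genes of the mTORC1 list and 1 of the 10 elongation factors. In the other lists 0 genes reached this level, against 4.81% of all genes. The genes of the mTORC1 list described next are not among those 2. Mxd1, the most abundant gene of the mTORC1 list, was at 594, 656 and 748 CPM in model and 476, 400 and 559 CPM in control libraries. Its log2 fold change was 0.48 (SE 0.24), with an unadjusted p of 0.0891 by edgeR's quasi-likelihood test, and 0.55 (SE 0.23) without model 1. The kinase Mtor itself was at 43.4, 77.0 and 79.5 CPM in model and 84.0, 67.0 and 66.8 CPM in control libraries, and Larp1, which binds TOP tracts, at 152, 233 and 199 CPM in model and 232, 206 and 209 CPM in control libraries. The log2 fold changes of Mtor and Larp1 were -0.12 and -0.15.

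Short nuclear transcripts for mitochondria showed the model 1 pattern as well. Of 72 mitochondrial ribosomal proteins 69 lay above 0 (median 0.26), and of 72 subunits of oxidative phosphorylation 70 did (median 0.45). Without model 1, 28 of the first and 46 of the second list lay above 0, with medians of -0.02 and 0.03. In model 1 the median deviation of the oxidative phosphorylation subunits was 0.90, close to the 0.83 of the cytosolic ribosomal proteins, but in control 3 they were at -0.91, against -0.36 for the ribosomal proteins.

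**Figure D5:**
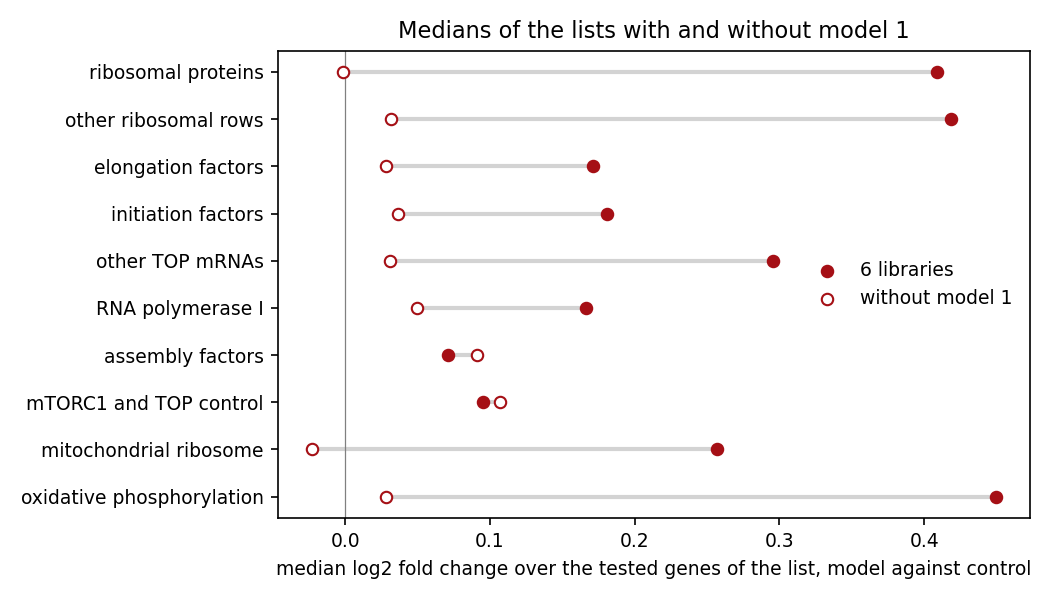
Median log2 fold change, model against control, over the tested genes of each list, with all 6 libraries (filled) and without model 1 (open). The ribosomal proteins sit at 0.41 and -0.0014, other ribosomal rows at 0.42 and 0.03, and assembly factors at 0.07 and 0.09.

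Cell type markers also varied between the libraries, and their part in the ribosomal protein values was not tested. As the label of small intestine implies, enterocyte markers were abundant: the 11 tested of 12 summed to 23806 to 38046 CPM in model libraries, highest in model 1, and to 19599 to 28316 CPM in control libraries, with Fabp2 listed at 0. Of the 11, 9 had a log2 fold change above 0, but only 5 were highest in model 1. Apoa1 alone was at 13695, 4460 and 6562 CPM in model 1, 2 and 3, against 5251, 4671 and 2120 CPM in control 1, 2 and 3. Apob was at 4998, 5438 and 8959 CPM in model 1, 2 and 3. Of 8 smooth muscle markers 0 had a log2 fold change above 0, and their sum was 1128 to 1273 CPM in model and 1539 to 2321 CPM in control libraries. Crypt markers summed to 1287 to 1629 CPM in model and 1344 to 1715 CPM in control libraries (4 of 12 above 0), and goblet cell markers to 11633 to 12716 CPM in model and 9324 to 19377 CPM in control libraries (2 of 7). T cell markers summed to 132 to 158 CPM in model and 93.4 to 121 CPM in control libraries (6 of 7 above 0), and B cell markers to 48.3 to 332 CPM in model and 51.3 to 519 CPM in control libraries (0 of 11 above 0, Ms4a1 listed at 0). Paneth cell markers summed to 100.2 to 901 CPM in model and 24.3 to 6755 CPM in control libraries (0 of 6 above 0). Red blood cell markers summed to 7.47 to 11.8 CPM in model and 8.42 to 19.6 CPM in control libraries (0 of 4 above 0, Alas2 listed at 0). Exocrine pancreas markers reached 7668 CPM in model 3, against 9.32 and 32.6 CPM in the other model libraries and at most 6.89 CPM in control libraries, with Cela2a listed at 0.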

How the data were processed

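Raw counts of reads were deposited by the authors as 1 table, with a column for each library and gene symbols as row names. Per the submitters' processing notes it was made with FastQC, Trimmomatic, STAR and featureCounts on build GRCm39; for versions, annotation, strand and multi-mapping settings: not given in the sources used here. Poly-A RNA was fragmented and size-selected, per the labels' protocols. Library names in the labels matched all 6 columns (0 unmatched). Reads of near-identical copies and overlapping genes may therefore be split or lost. Rows of processed pseudogenes named for a member held 0.378% of the members' counts and at most 3.23% for a single gene (Rpl3). Only rows with the ending -ps in their name were counted, so pseudogene rows under other names are left out, and their share is not known. This also leaves out pseudogene rows named for a gene that is not a member. Among the rows named for a gene that is not a member, Rpl34-ps1 summed to 34724 counts, while Rpl34 has no row of its own. Rps10-ps2 summed to 7403 counts, while Rps10 is listed at 0.

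Genes were kept by edgeR's filterByExpr (15904 of 33017, with at least 99.6% of each library's counts), scaled by TMM and tested with edgeR's robust quasi-likelihood F test on group alone, Benjamini-Hochberg adjusted over all genes (R 4.3.3, edgeR 4.0.16). An SE is the size of a log2 fold change over the root of its F statistic. The common biological coefficient of variation came to 40.66%. No 2 libraries of a group were duplicates, since a chi-square test of their counts gave 115.3 to 490.4 per degree of freedom. Transcript lengths came from GENCODE on GRCm38, matched by symbol for 96.62% of tested genes and 68 of 68 members; length trends were lowess fits with a span of 0.3. The scripts were tested on simulated data.

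The members, the lists and the alternatives were chosen with earlier results of these data known. Named members are the 4 highest in mean CPM, the 4 largest and 4 smallest log2 fold changes, those at an unadjusted p under 0.05, and fixed members; of each list the most abundant. Some genes that this rule names are left out, and further list genes, among them Mtor and Larp1, were named outside it. Members whose groups do not overlap were named after their values were seen. Alternatives were RLE, upper quartile and library size scaling, DESeq2 1.42.0, limma-voom (limma 3.58.1) with and without library quality weights, other filters, no robust dispersion, length trends removed, pseudogene rows added, the replicate number as a block, and libraries left out. Start sites were read from RefSeq tables of GRCm38.p6.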

Additional observations from a re-analysis of the deposited data

How the results depend on the processing

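No ribosomal protein was called under any alternative, and edgeR called no gene of the table, where DESeq2 called 25 genes. The log2 fold changes of all 68 members stayed above 0 under RLE, upper quartile and library size scaling, with medians of 0.45, 0.33 and 0.18; library size alone moved the median of all genes to -0.21. The median of the members was 0.45 with DESeq2, 0.34 with limma-voom, 0.41 without a filter, 0.38 with at least 5 CPM in 3 libraries, 0.41 with pseudogene rows added and 0.11 with library quality weights, which gave model 1 the lowest weight (0.339). With these weights 59 of 68 members lay above 0, the lowest at -0.12, and of the members described Rpl37a (-0.064), Rps27l (-0.047) and Rpl22 (-0.0082) turned; the cause was not tested. With libraries left out (each in turn, and control 3 with model 1), the number of members above 0 ran from 11 to 68, or 33 to 68 for single libraries, their median from -0.081 to 0.60, and the difference in the share of counts from -0.146 to 0.466 (-0.107 without model 1 alone) percentage points. Both lowest counts of members are fits without model 1. In the same fits the log2 fold changes ran as follows: Rpsa -0.049 to 0.62, Rps4x -0.055 to 0.58, Rps14 -0.027 to 0.72, Rpl37a -0.18 to 0.85, Rpl3 -0.074 to 0.37, Rps27l -0.26 to 0.46, Rps2 -0.084 to 0.42, Rpl27 -0.13 to 0.40, Rplp1 -0.060 to 0.71, Rplp2 -0.17 to 0.59, Rpl5 -0.083 to 0.53, Rpl22 -0.22 to 0.45, Rpl41 -0.15 to 0.60, Rps27 -0.035 to 0.76. Rps27a stayed above 0 in each of them, at 0.23 to 0.85. The deviations of libraries with the same replicate number correlated at -0.15, -0.27 and 0.31 for numbers 1, 2 and 3 (-0.31, 0.13 and 0.21 over the members alone); not every pair was positive, so the numbers were not taken to pair the libraries. With the replicate number as a block, 0 genes were called, 537 had an unadjusted p under 0.05, and the median of the members was 0.33, or 0.20 with the length trends removed as well. Counting error was small at this depth, and the smallest SE of a member over 3 libraries a group was 0.26 on the log2 scale.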
